A study of Mus musculus with 18 samples.

Results

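The 10 genes of the mouse ileal epithelium described here are Plscr2, Gm42031, Eif3j2, Bglap3, Alad, Ly6e, Adh6a, Cd177, Ceacam10 and Lamtor3. They are 10 of the 32286 gene features of the single-cell RNA-seq libraries. They were chosen by their measured levels, since an earlier look at these libraries showed a difference between Setdb1-KO and WT that recurred from cell type to cell type. The genotype differences of the 10 genes are therefore a description and carry no test. The label "switched with genotype in every cell type" held for the Lgr5+ experiment apart from Paneth-like cells. It did not hold for the lineage-traced experiment, in which 2 of the 10 genes, Gm42031 and Eif3j2, differed in the same direction in every cell type.

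GFP-positive cells were sorted from the ileum of male mice 60 to 65 days old, all of which had received 1 injection of tamoxifen (70 mg/kg) 5 days earlier. In the Lgr5+ experiment, 2 libraries came from mice with the Lgr5-GFP-CreERT2 allele and intact Setdb1, called WT, and 2 from mice of the genotype Lgr5-GFP-CreERT2/ Setdb1lox/lox, called Setdb1-KO. In the lineage-traced experiment, 2 libraries of each genotype came from mice that also carried the nTnG reporter, with which GFP marks Lgr5+ cells and their progeny. The paper treats mature enterocytes and goblet, Paneth, tuft and enteroendocrine cells of the Lgr5+ sort as cells without GFP that co-purified. It attributes them to the gating and to incomplete enrichment. Setdb1-KO therefore names the mice there, and whether a given Lgr5+ cell had lost Setdb1 was not measured here. All 4 groups carry the CreERT2 knock-in at Lgr5, an allele with mosaic expression, and all received tamoxifen, so no group lacks Cre or its activation. The labels give a C57Bl6 background for all mice. Per the study's methods the floxed allele came from EUCOMM mice crossed to a FLP line listed as B6.129S4. Serial back-crossing to C57Bl6 then removed the FLP transgene. The Lgr5 allele is listed as B6.129P2 and the reporter as B6N.129S6. The floxed alleles are present in every cell of the Setdb1-KO mice and in none of the WT mice, so loss of Setdb1 and any other difference between these mouse lines cannot be told apart from the group labels. The methods describe the 2 libraries of a group as biological replicates, and whether a library pools mice is not given in the sources used here.

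Setdb1 is a histone methyltransferase that places H3K9me3, a mark of silent chromatin that keeps retroelements and some genes off. Crypt stem cells marked by Lgr5 divide at the base of the intestinal crypts and give rise to absorptive enterocytes and to secretory goblet, Paneth, tuft and enteroendocrine cells. The 10 genes share no pathway. Plscr2 belongs to the phospholipid scramblases, which move lipids between membrane leaflets. Eif3j2 is a near copy of Eif3j1, a subunit of translation initiation factor eIF3. Bglap3 is a copy of the osteocalcin gene, Alad encodes the second enzyme of heme synthesis, and Ly6e, Cd177 and Ceacam10 encode proteins of families displayed on or released from the cell surface. Adh6a is an alcohol dehydrogenase, Lamtor3 is a subunit of Ragulator, which holds mTORC1 and MEK signalling at the lysosome, and Gm42031 is annotated as a lincRNA without a known function.

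On GRCm38 with GENCODE M21, Plscr2 lies at chr9:92275602-92297752, Gm42031 at chr8:85125872-85132289, Alad at chr4:62509169-62519918 and Ly6e at chr15:74955051-74959905. The genes Bglap3, Lamtor3 and Adh6a are on chromosome 3, which also holds Setdb1 at chr3:95323525-95357202. Bglap3 (chr3:88368616-88372743) starts 7 Mb from the start of Setdb1, Lamtor3 (chr3:137918506-137928900) 42.6 Mb and Adh6a (chr3:138313286-138331134) 43 Mb, and the last pair start 394.8 kb apart. Cd177 (chr7:24743983-24760311, minus strand) and Ceacam10 (chr7:24777206-24784657, plus strand) are read away from each other from starts 16.9 kb apart. No other annotated gene feature of these libraries overlaps any of the 10.

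RefSeq start windows (250 bases before to 50 after the start, build GRCm38.p6) were found for 6 of the 10 genes. The windows of Cd177 and Ceacam10, which lie next to each other, and of Gm42031, which differed in both experiments, are printed 5′ to 3′ on the strand of the gene, with the letters TATAAA in capitals wherever they occur on either strand.
Cd177, chr7:24760262-24760561, minus strand: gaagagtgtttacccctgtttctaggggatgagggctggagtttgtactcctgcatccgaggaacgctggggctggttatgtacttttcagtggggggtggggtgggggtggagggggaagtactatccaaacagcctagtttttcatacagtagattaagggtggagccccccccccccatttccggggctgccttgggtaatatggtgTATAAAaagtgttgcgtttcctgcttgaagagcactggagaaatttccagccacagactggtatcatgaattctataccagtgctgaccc
Ceacam10, chr7:24776954-24777253, plus strand: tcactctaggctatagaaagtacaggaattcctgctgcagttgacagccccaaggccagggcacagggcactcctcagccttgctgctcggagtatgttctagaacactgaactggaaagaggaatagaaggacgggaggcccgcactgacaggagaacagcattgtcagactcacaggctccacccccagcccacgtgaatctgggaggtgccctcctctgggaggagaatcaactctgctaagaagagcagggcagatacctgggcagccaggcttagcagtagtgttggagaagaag
Gm42031, chr8:85131765-85132064, minus strand: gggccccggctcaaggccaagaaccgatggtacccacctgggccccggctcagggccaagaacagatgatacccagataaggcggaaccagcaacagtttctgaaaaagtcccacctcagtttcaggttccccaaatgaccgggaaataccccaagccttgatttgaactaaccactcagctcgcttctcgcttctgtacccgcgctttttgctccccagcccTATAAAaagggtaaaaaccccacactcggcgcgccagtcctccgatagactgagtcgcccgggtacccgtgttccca
TATAAA occurred in the windows of Cd177, Gm42031 and Adh6a and not in that of Ceacam10, and it occurred in 13.6% of the 32851 windows of all genes. The windows of Cd177 and Ceacam10 held 4 CG dinucleotides each and that of Gm42031 held 16, against a median of 7 over all windows.

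Single-cell libraries were counted as unique molecular identifiers (UMIs), each standing for 1 captured RNA molecule, and a level is given as CPM, the UMIs of a gene scaled by the total UMIs of the cells summed in a library so that every library has the same total. In all 52015 barcodes were kept, 2894 to 11423 per library, with a median of 4686 to 9336 UMIs in the Lgr5+ and 961 to 2085 in the lineage-traced libraries. Cells were placed in 7 epithelial classes by marker UMIs, and markers not used for the placing were highest in their own class in every case (stem-like cells 1055 CPM of 5 stem cell genes, enterocyte-like cells 5210 CPM of 5 enterocyte genes). Neutrophil, stromal and endothelial markers summed to at most 0.262 CPM per list in every library. B and plasma cell markers reached 11.55 CPM and macrophage markers 4.53 CPM, both at their highest in Lgr5+ WT replicate 2. The list of hepatocyte genes summed to between 33.55 CPM in lineage-traced WT replicate 1 and 150.2 CPM in Lgr5+ Setdb1-KO replicate 1. Paneth cell markers summed to 322800 and 295800 CPM in the lineage-traced WT libraries and to 69970 and 47240 CPM in those labelled Setdb1-KO, and 9297, 10950, 8759 and 32870 CPM in the Lgr5+ libraries. The part of this difference in the results was not tested. Setdb1 itself stood at 14.8 and 13.4 CPM in Lgr5+ WT stem-like cells against 4.13 and 8.74 in Setdb1-KO. In the lineage-traced stem-like cells it stood at 8.75 and 4.37 CPM in WT against 14.6 and 9.68 in the libraries labelled Setdb1-KO, which goes against the label. That difference rested on 13 and 35 UMIs and was not called (log2 fold change 0.54 ± 0.54 SE, edgeR adjusted p = 0.792), and lineage-traced Setdb1 overlapped between the genotypes in 5 of the 7 classes. Over all kept lineage-traced cells Setdb1 was higher without overlap in the libraries labelled Setdb1-KO, with means of 9.15 against 5.16 CPM (304 and 151 UMIs). The lower level in Lgr5+ Setdb1-KO stem-like cells was not called either (-1.02 ± 0.25 SE, edgeR adjusted p = 0.0567). Lgr5+ Setdb1 overlapped in 3 of the 7 classes. The assay reads the 3′ ends of transcripts, outside the deleted exon 3, so these levels do not check the deletion in either experiment.

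Plscr2, Gm42031, Eif3j2 and Bglap3 were at a few CPM or less in Lgr5+ WT stem-like cells and higher in Setdb1-KO. Plscr2 in stem-like cells stood at 0.194 and 0.262 CPM in WT and at 12.2 and 13.6 CPM in Setdb1-KO, 56.7 times the WT mean. Gm42031 stood at 2.42 and 1.57 CPM in WT and at 41 and 57.6 CPM in Setdb1-KO, 24.7 times the WT mean. Eif3j2 differed less, at 3.2 and 2.62 CPM against 12.2 and 12.4 CPM, 4.24 times. None of these groups overlapped. In enterocyte-like cells, its highest class, Plscr2 stood at 0 and 0.757 CPM in WT and 34.7 and 32.5 CPM in Setdb1-KO, while Gm42031 was highest in dividing progenitor-like cells, at 4.85 and 1.25 CPM against 59.4 and 86.5 CPM. Bglap3 was low in stem-like cells of both genotypes, at 0.387 and 0.35 CPM in WT and 2.36 and 7.45 CPM in Setdb1-KO, and its highest Lgr5+ levels were in Setdb1-KO tuft-like cells, at 90.2 and 80.5 CPM. No Bglap3 UMI was counted in the 256 WT tuft-like cells, so the Setdb1-KO mean was at least 39.7 times the level that 3 UMIs over the group would give. Over all classes 2.56% and 4.14% of the barcodes of Lgr5+ Setdb1-KO replicates 1 and 2 held Bglap3, with up to 68 and 28 UMIs in 1 barcode. Setdb1-KO tuft-like cells held 187 Bglap3 UMIs, and how many of them came from a single barcode was not counted.

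Among lineage-traced cells these 4 genes did not share a direction. Gm42031 stood at 15.1 and 10.9 CPM in WT stem-like cells and at 49.7 and 47.9 CPM in the libraries labelled Setdb1-KO, 3.75 times. Eif3j2 stood at 3.98 and 4.37 CPM against 62.4 and 34.4 CPM, 11.6 times. Both therefore kept the direction of the Lgr5+ experiment, with a smaller ratio for Gm42031 and a larger one for Eif3j2. Plscr2 was close to absent from all 4 lineage-traced libraries, at 0.157 to 0.247 CPM over all kept cells, with 5 UMIs in WT and 8 in the libraries labelled Setdb1-KO. Bglap3 went the other way, at 1.25 and 6.93 CPM over all kept WT cells and 0 and 0.0748 CPM in the libraries labelled Setdb1-KO. Its WT level rested on enterocyte-like cells (6.4 and 50.2 CPM) and on tuft-like cells of 1 library (0 and 247 CPM), so the WT libraries differed widely from each other.

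**Figure D1:**
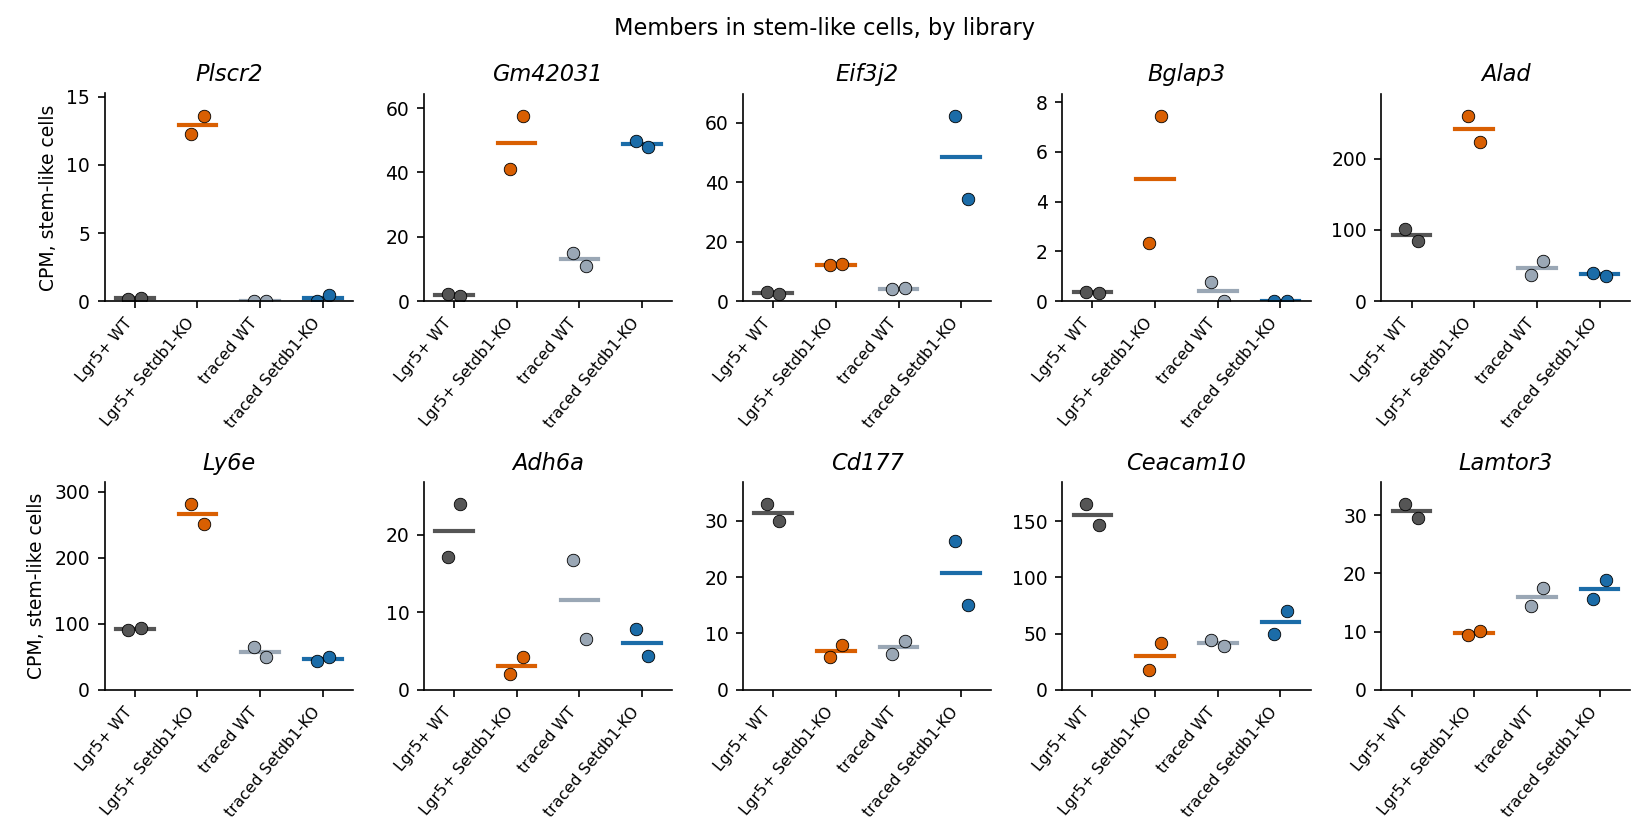
CPM of the 10 genes in stem-like cells, each point a library and each bar the mean of the 2 libraries of a group. In the Lgr5+ experiment the genotypes did not overlap for any gene, while in the lineage-traced experiment Gm42031 and Eif3j2 kept their direction without overlap and Ly6e, Cd177 and Ceacam10 lay the opposite way round.

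Alad and Ly6e were expressed in both genotypes and were higher in Lgr5+ Setdb1-KO stem-like cells. Alad in stem-like cells stood at 101 and 84.3 CPM in WT and 260 and 223 CPM in Setdb1-KO, a ratio of 2.61. Ly6e stood at 91.2 and 93.4 CPM against 281 and 252 CPM, a ratio of 2.89. Among lineage-traced libraries Alad overlapped between genotypes in stem-like cells, with 36.6 and 56.8 CPM in WT and 40 and 35.8 CPM in the libraries labelled Setdb1-KO. It overlapped in enterocyte-like and enteroendocrine-like cells too, and was higher without overlap, the direction of the Lgr5+ experiment, in dividing progenitor-like (1.28 times), goblet-like (1.38), Paneth-like (2.13) and tuft-like cells (2.24). Ly6e was lower there in the libraries labelled Setdb1-KO, at 42.9 and 49.9 CPM against 65.2 and 50.2 CPM, and in goblet-like cells, where it was highest, at 64 and 73.4 CPM against 151 and 120 CPM. In lineage-traced tuft-like cells Ly6e was higher in the libraries labelled Setdb1-KO, at 27.9 and 34.9 CPM against 23.9 and 24.7 CPM, and in enteroendocrine-like cells it overlapped.

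Adh6a, Cd177, Ceacam10 and Lamtor3 were lower in Lgr5+ Setdb1-KO. Adh6a is foremost an enterocyte gene in these data, and in enterocyte-like cells it stood at 1300 and 1113 CPM in Lgr5+ WT against 132 and 164 CPM in Setdb1-KO, a ratio of 0.123. In lineage-traced enterocyte-like cells the genotypes overlapped, at 237 and 309 CPM in WT and 140 and 276 CPM in the libraries labelled Setdb1-KO, as they did in stem-like cells. Lineage-traced Adh6a kept the Lgr5+ direction without overlap in dividing progenitor-like (ratio 0.315), goblet-like (0.373), Paneth-like (0.115) and tuft-like cells (0.143) and over all kept cells (0.331). Beside the value over all kept cells, enterocyte-like cells made up 13.7% and 7.65% of the lineage-traced WT barcodes and 1.76% and 2.58% of those labelled Setdb1-KO, and the part of this share was not tested. In enteroendocrine-like cells it was higher in the libraries labelled Setdb1-KO, at 15.7 and 22.1 CPM against 12.6 and 0 CPM, from at most 7 UMIs in a library. Lamtor3 in Lgr5+ stem-like cells stood at 31.9 and 29.5 CPM in WT against 9.44 and 10.1 CPM in Setdb1-KO, a ratio of 0.319. Its lineage-traced levels, 14.3 and 17.5 CPM against 15.6 and 18.9 CPM, overlapped.

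In stem-like cells the neighbours Cd177 and Ceacam10 differed in the same direction as each other, and in opposite directions in the 2 experiments. In Lgr5+ stem-like cells Cd177 stood at 32.9 and 29.9 CPM in WT and 5.75 and 7.95 CPM in Setdb1-KO, a ratio of 0.218. Ceacam10 stood at 165 and 147 CPM against 17.4 and 41.9 CPM, a ratio of 0.19. In lineage-traced stem-like cells Cd177 was higher in the libraries labelled Setdb1-KO, at 26.3 and 15 CPM against 6.36 and 8.73 CPM. Ceacam10 was higher there too, at 49.7 and 70.2 CPM against 44.5 and 39.3 CPM, so the groups did not overlap for either gene in either experiment. Both were also higher without overlap in lineage-traced goblet-like, Paneth-like and enteroendocrine-like cells, while both overlapped in dividing progenitor-like (ratios 0.937 and 0.977) and enterocyte-like cells (1.48 and 0.91). In lineage-traced tuft-like cells Cd177 was higher without overlap (3.37 times) and Ceacam10 overlapped (1.14 times).

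The difference of each gene was then followed through 7 cell types. Non-overlap here means that both libraries of a genotype lay above both of the other. Of the 10 genes, 5 (Plscr2, Eif3j2, Adh6a, Cd177 and Ceacam10) did not overlap in any of the 7 types of the Lgr5+ experiment, against 0.517% of the 11033 genes tested in stem-like cells. The other 5 overlapped in Paneth-like cells alone, a class with 16 cells in Setdb1-KO replicate 1. In the 6 other types, a restriction chosen after the values were seen, all 10 genes did not overlap, against 0.952% of the genes tested. Since this contrast chose the genes, nothing is read from either share. In the lineage-traced experiment Gm42031 and Eif3j2 did not overlap in any of the 7 types, against 1.86% of the genes tested, or 2.15% without Paneth-like cells. Eif3j2 alone of the 10 did so in both experiments and in the same direction, against 0.0453% (0.0816% of all genes, and also Gm42031, without Paneth-like cells). Some Lgr5+ counts were near 0. Against 0 UMIs in WT, Plscr2 had 9 UMIs in Setdb1-KO enteroendocrine-like and 10 in Paneth-like cells. These stand for at least 1.37-fold and 1.44-fold over a floor of 3 UMIs. Adh6a had 6 UMIs in each genotype in Lgr5+ Paneth-like cells, and Cd177 had 12 in WT and 3 in Setdb1-KO. Cd177 had 10 and 4 in Lgr5+ enterocyte-like cells. Some lineage-traced counts were near 0 too. In the 100 WT enteroendocrine-like cells Gm42031 had 0 UMIs against 18 under the label Setdb1-KO, at least 1.3-fold over a floor of 3 UMIs. Eif3j2 had 1 against 17 there. In WT tuft-like cells Gm42031 had 3 UMIs and Eif3j2 had 2. When all 8 libraries were compared at once within each type, none of the 10 kept the genotypes apart in all 7 types. The share over all genes is not given for this comparison, so nothing is read from it.

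Among the 10 genes in the Lgr5+ experiment, the size of the difference varied least over types for Eif3j2. Its difference in log2(mean CPM + 1), Setdb1-KO minus WT, ran from 1.77 in stem-like to 2.47 in Paneth-like cells in the Lgr5+ experiment and from 2.08 in goblet-like to 3.89 in enterocyte-like cells in the lineage-traced one. The value of Lgr5+ Paneth-like cells was set against 0 UMIs in 121 WT cells, and the 13 UMIs of Setdb1-KO, of which replicate 1 held 1, support a ratio of at least 1.63-fold over a floor of 3 UMIs for the group. Ceacam10 ran from -3.38 in tuft-like to -1.32 in enteroendocrine-like cells in the Lgr5+ experiment, and Adh6a from -3.55 in tuft-like to -1.70 in Paneth-like cells. Bglap3 varied most, from 0.76 in Paneth-like to 6.43 in tuft-like cells. Cd177 differed least in enteroendocrine-like cells (-0.55), the class in which it was highest, with 154 and 125 CPM in WT and 101 and 89.6 CPM in Setdb1-KO. Ly6e differed by 1.52 in stem-like cells but by 0.23 in enterocyte-like and 0.21 in enteroendocrine-like cells. A difference on this scale understates the ratio of genes near 0 CPM, as for Plscr2 in goblet-like cells (0 and 0 CPM against 1.71 and 2 CPM).

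**Figure D2:**
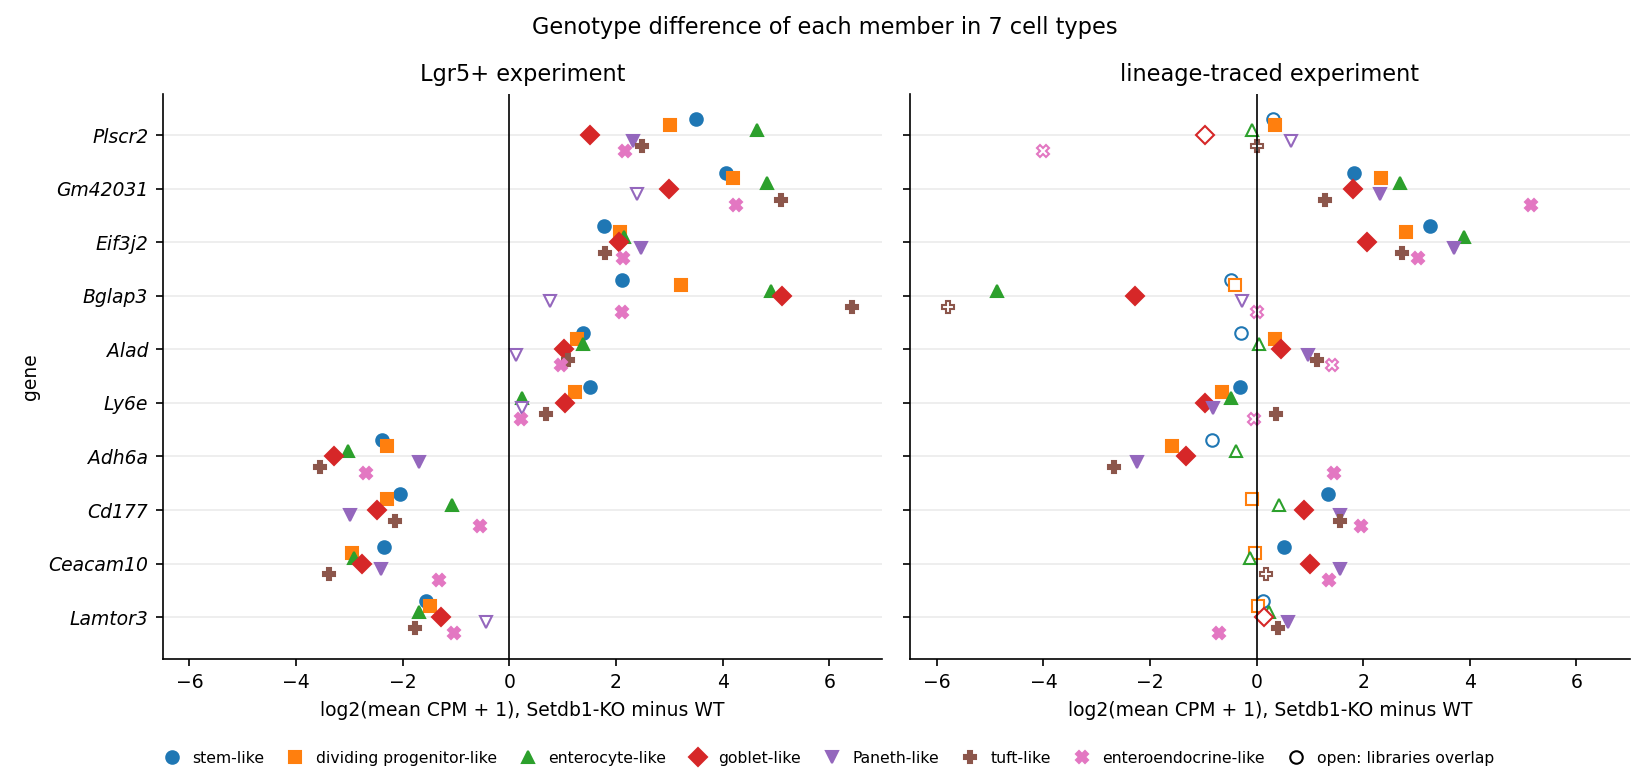
Setdb1-KO minus WT difference in log2(mean CPM + 1) for each gene (rows) in 7 cell types (symbols), 2 libraries a group, with filled symbols where the libraries of the genotypes did not overlap. In the Lgr5+ panel every symbol of a gene lies on 1 side of 0, from 0.13 (Alad, Paneth-like) to 6.43 (Bglap3, tuft-like) for 6 genes and from -0.44 (Lamtor3, Paneth-like) to -3.55 (Adh6a, tuft-like) for 4, and in the lineage-traced panel this is so with filled symbols for Gm42031 and Eif3j2.

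Free RNA was read from barcodes of at most 100 UMIs, which hold no cell of the size kept here. Adh6a in the Lgr5+ libraries stood at 120 and 117 CPM in the shallow barcodes of WT against 16 and 19.6 CPM in those of Setdb1-KO. In stem-like cells Adh6a reached 0.142 to 0.204 of the shallow level in WT, where Paneth cell check markers reached 0.0793 to 0.0928 and goblet cell check markers 0.0611 to 0.103. In enterocyte-like cells it reached 9.49 to 10.8 times the shallow level. It lay below that level in Lgr5+ WT dividing progenitor-like (0.532 to 0.575), goblet-like (0.245 to 0.564) and Paneth-like cells (0.0442 to 0.0503). The same was so in tuft-like (0.31 to 0.32) and enteroendocrine-like cells (0.242 to 0.437). Cd177 in stem-like cells stood at 2.31 to 3.43 times the shallow level in WT. Cd177 lay below that level in Lgr5+ WT enterocyte-like cells (0.123 to 0.234). So did Ceacam10 there (0.227 to 0.256) and in tuft-like cells (0.374 to 0.894). Both lay above it in dividing progenitor-like, goblet-like and enteroendocrine-like cells of Lgr5+ WT. The libraries lay on both sides of it for both genes in Paneth-like cells and for Cd177 in tuft-like cells. In the lineage-traced libraries Adh6a stood at 28.3 and 53.4 CPM in the shallow barcodes of WT and at 8.65 and 15.9 CPM in those labelled Setdb1-KO. Lineage-traced dividing progenitor-like cells held 0.688 to 0.948 of the shallow level in WT and 0.872 to 0.911 under the label Setdb1-KO, and goblet-like cells 0.501 to 0.546 and 0.582 to 0.752. Ceacam10 in Lgr5+ stem-like cells stood at 1.71 to 2.27 times the shallow level in WT, and Plscr2 at 1.71 to 1.87 times in Setdb1-KO. Plscr2 in Setdb1-KO lay below the shallow level in 4 of the 7 classes, at 0.24 to 0.275 of it in goblet-like, 0.427 to 0.693 in Paneth-like, 0.568 to 0.722 in tuft-like and 0.279 to 0.695 in enteroendocrine-like cells. Gm42031 lay below it in goblet-like (0.432 to 0.472), Paneth-like (0 to 0.395) and enteroendocrine-like cells (0.507 to 0.632). Bglap3 in Setdb1-KO stem-like cells stood at 0.344 to 0.468 of the shallow level. The part of free RNA in the differences outside the class where a gene was highest was not tested.

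T cells, 70 in the WT libraries and 25 in those labelled Setdb1-KO, were too few to be compared per library. Gm42031 gave 4 UMIs of 59693 in T cells labelled Setdb1-KO (67 CPM, exact Poisson 95% interval 18.3 to 171.6) and 0 of 138048 in WT (0 CPM, up to 26.7). These intervals overlap and cover counting error only. Shallow barcodes held Gm42031 at 15.7 to 44.6 CPM in the 4 libraries labelled Setdb1-KO and at 1.31 to 2.4 CPM in WT. Ly6e was at 318.7 CPM in WT T cells and 251.3 CPM in the others, and Alad at 79.7 CPM and 150.8 CPM, with overlapping intervals.

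Eif3j2, a gene of 1 exon at chr18:43475418-43477796, cannot be counted apart from Eif3j1 without doubt. The 2 transcripts are 99.8% identical over 2369 aligned bases, and 88.9% of the 50-base words in the last 500 bases of Eif3j2 also occur in Eif3j1. Eif3j2 made up 2.46% and 2.03% of the UMIs of the pair in Lgr5+ WT stem-like cells and 12.1% and 11.4% in Setdb1-KO. In lineage-traced stem-like cells the share was 1.33% and 1.52% in WT and 21.5% and 15.8% in the libraries labelled Setdb1-KO. The share did not overlap between genotypes in any of the 7 types of either experiment. The sum of the pair in Lgr5+ stem-like cells was lower in Setdb1-KO, at 101.2 and 109 CPM against 130.1 and 129.3 CPM. In lineage-traced stem-like cells the libraries overlapped, at 298.2 and 288.1 CPM in WT against 290.6 and 217.4 CPM. Over all kept lineage-traced cells the sum was higher in the libraries labelled Setdb1-KO, at 261.9 and 205.7 CPM against 186.6 and 160.2 CPM, and it was higher without overlap in enterocyte-like, Paneth-like and tuft-like cells. Eif3j1 was not called between genotypes in stem-like cells. Its level was nonetheless lower in Setdb1-KO without overlap in all 7 types of the Lgr5+ experiment, with a median difference of -0.45 in log2(mean CPM + 1), opposite to Eif3j2. The part of UMI assignment between the copies in these differences was not tested. Bglap3 shares 35.5% of such words with Bglap2 and 17.7% with Bglap, and both copies were close to 0 CPM in stem-like cells of all libraries. Plscr2, Adh6a, Ceacam10 and Ly6e shared none with the relatives compared.

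**Figure D3:**
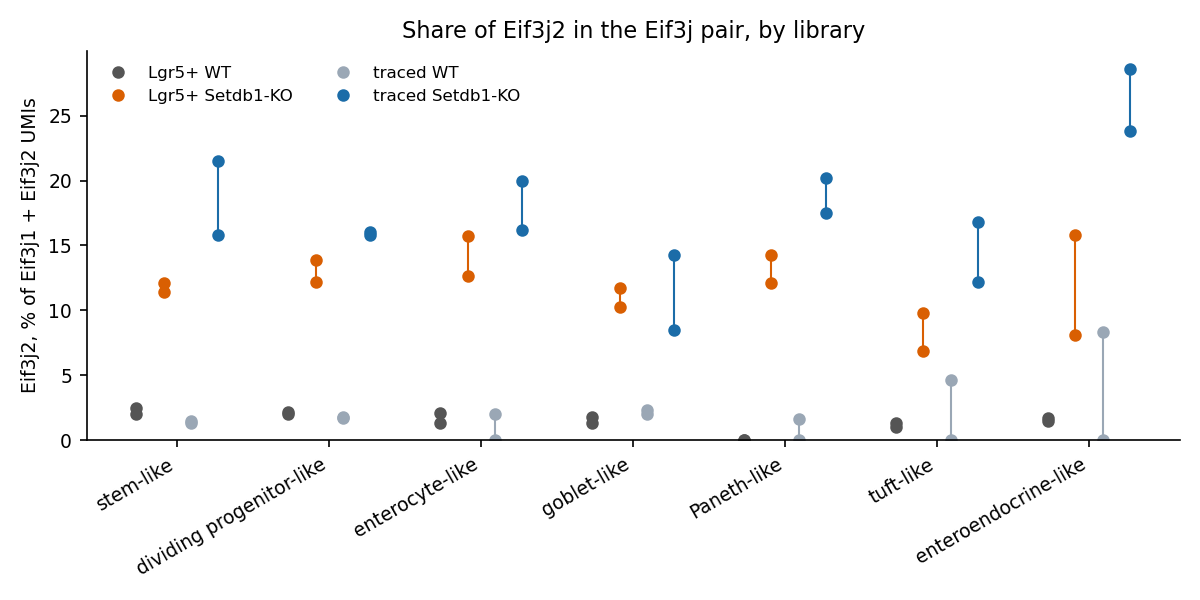
UMIs of Eif3j2 as a percentage of the UMIs of Eif3j1 and Eif3j2 together in 7 cell types, each point a library, with a line joining the 2 libraries of a group. In stem-like cells WT libraries of both experiments lie between 1.33% and 2.46% and those labelled Setdb1-KO between 11.4% and 21.5%.

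Genes near the 10 were tested next. In stem-like cells 167 of the 396 genes that start within 1000 kb of one of the 10 passed the filter on low counts. Of these, 3 were called by edgeR in the Lgr5+ experiment (1.80%), against 0.943% of all genes, and all 3 were higher in Setdb1-KO. Plscr1, 25.9 kb from Plscr2 and itself a scramblase gene induced by interferon, rose from 28.4 and 28 CPM to 46.8 and 49 CPM (log2 fold change 0.81 ± 0.14 SE, edgeR adjusted p = 0.00501). Hdhd3, 16.5 kb from Alad, encodes a protein of the haloacid dehalogenase hydrolase family and rose from 38.1 and 28.6 CPM to 74.9 and 55.5 CPM (1.02 ± 0.16, edgeR adjusted p = 0.00255). In enterocyte-like cells, where Hdhd3 was highest, it stood at 146 and 124 CPM in WT against 340 and 253 CPM in Setdb1-KO. Adh1, an alcohol dehydrogenase that also acts on retinol, lies 52.3 kb from Adh6a and rose from 22.8 and 28.1 CPM to 46.3 and 43.4 CPM (0.85 ± 0.16, edgeR adjusted p = 0.00776) where Adh6a was lower. None of the 36 tested neighbours of Cd177 and Ceacam10, of the 40 of Gm42031 and of the 50 of Bglap3 was called in the Lgr5+ experiment. Without Lgr5+ Setdb1-KO replicate 1 the count of 3 was 1, and without either of the lineage-traced libraries labelled Setdb1-KO it was 6.

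Of the 167 neighbours 4 were called in the lineage-traced experiment (2.40%), against 0.97% of all genes, and all 4 were lower in the libraries labelled Setdb1-KO. Spink1, a trypsin inhibitor gene 259.8 kb from Eif3j2, fell by 3.35 on the log2 scale (edgeR adjusted p = 1.325e-07), from 205.1 and 240.1 CPM to 25.4 and 21.3 CPM. Mttp, which loads lipid onto apolipoprotein B in enterocytes and lies 168.3 kb from Adh6a, fell by 1.69 (edgeR adjusted p = 0.000956). Ly6m, 58 kb from Ly6e, stood at 19.9 and 15.3 CPM in WT and had no UMI in the libraries labelled Setdb1-KO or in the Lgr5+ stem-like cells. Erich4, 855.6 kb from Cd177, was the fourth, at 11.9 and 13.1 CPM against 0 and 1.94 CPM. Enterocyte check markers were lower in the same comparison, at 1455 to 1934 CPM in the shallow barcodes of lineage-traced WT and 643.4 to 735.4 CPM in those labelled Setdb1-KO, and stem-like cells held 0.62 to 0.709 and 0.821 to 1.07 of these levels. Their part in the fall of Spink1, Mttp and Erich4, which were highest in enterocyte-like cells, was not tested. None of the neighbours called in 1 experiment was called in the other, and the difference between the experiments was not tested. The count of 4 was 2 without lineage-traced WT replicate 1 and 10 without lineage-traced Setdb1-KO replicate 1. On the average of both experiments 2 neighbours were called, Spink1 and Mttp, against 0.644% of all genes.

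**Figure D4:**
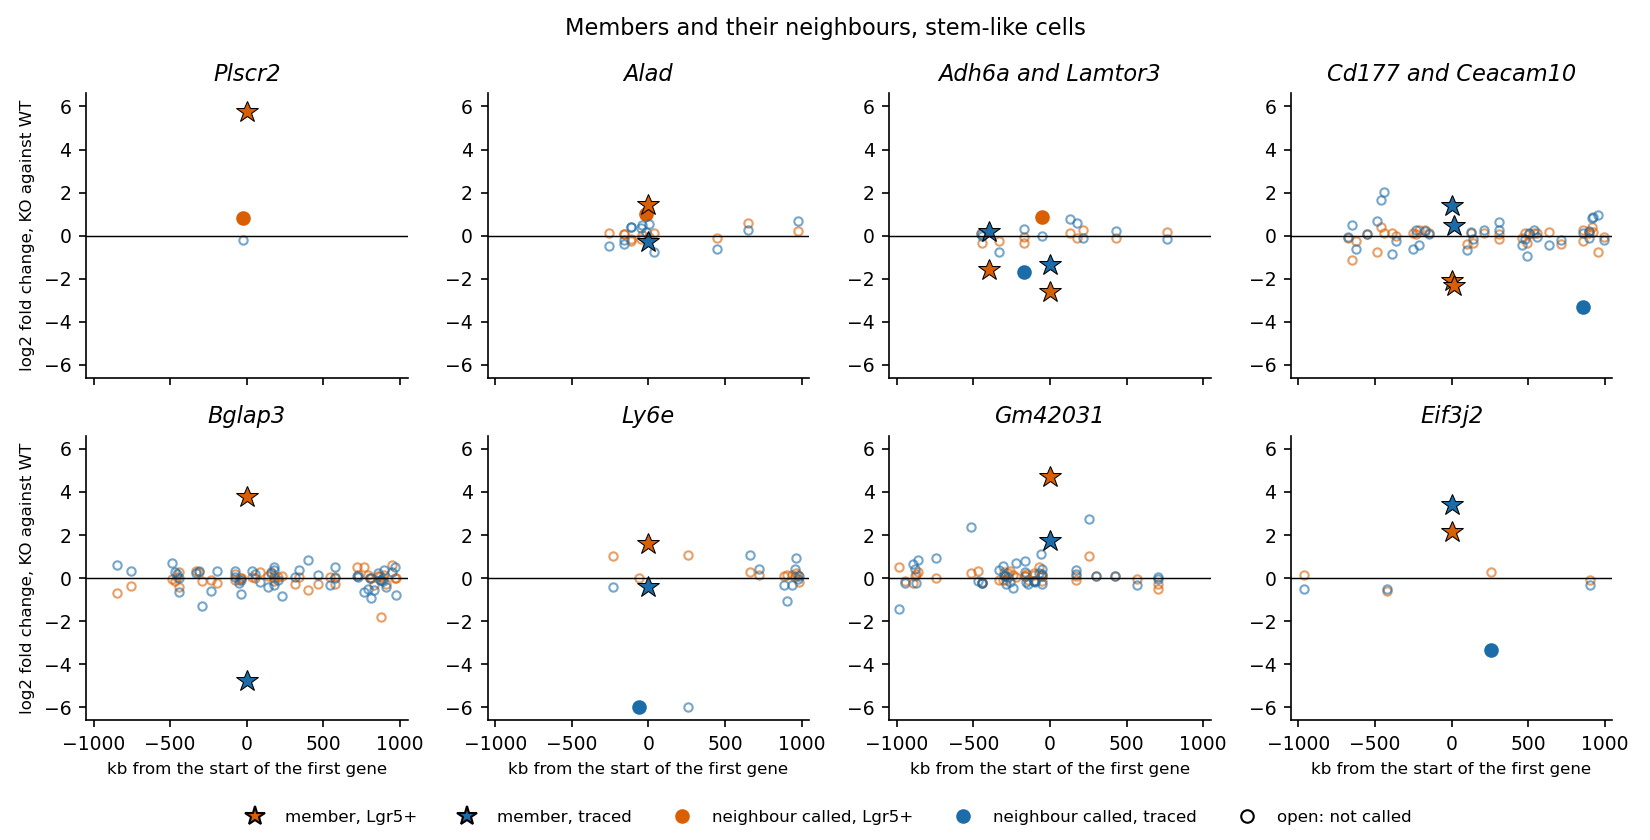
Log2 fold change between genotypes in stem-like cells (edgeR) of the 10 genes (stars) and of the tested genes that start within 1000 kb (circles, filled where called) against the distance of their starts in kb, with values beyond 6 drawn at 6 or -6 and the lineage-traced star of Plscr2 left out for want of UMIs. Most neighbours lie near 0, and the filled ones next to Plscr2, Alad and Adh6a in the Lgr5+ experiment lie between 0.81 and 1.02. The lineage-traced star of Bglap3 rests on 1 UMI in WT and none under the label Setdb1-KO.

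Relatives and partners of the 10 genes were counted in 9 lists holding 78 genes, of which 40 were tested in stem-like cells. On the average of both experiments none was called by edgeR, against 0.644% of all genes, and DESeq2 called 1. Of the 40, 7 had an unadjusted edgeR p under 0.05, as did 1084 of all 11033 genes. In the Lgr5+ experiment Plscr1 and Adh1 were called, both higher (5%, against 0.943% of all genes). In the lineage-traced experiment Ly6m was called, lower (2.5%, against 0.97%). The count of 2 was 0 without Lgr5+ WT replicate 1, and the count of 1 was 0 with at least 1000 or 2000 UMIs per barcode and without lineage-traced WT replicate 1, and 4 without lineage-traced Setdb1-KO replicate 1. None of the 13 other eIF3 subunits was called in either experiment (median log2 fold change 0.12 in the Lgr5+ and 0.18 in the lineage-traced experiment). None of the 7 tested enzymes of heme synthesis was called beside Alad (medians 0.03 and 0.24), nor were any of the 12 tested Ragulator, Rag and MEK partners of Lamtor3 (medians -0.0019 and 0.08). Median log2 fold changes over all tested genes were -0.0075 and 0.03. The closest copies Bglap, Bglap2 and Adh6b were at or near 0 CPM, and of the genes listed here as Ceacam and Ly6 relatives 2 of 12 and 1 of 14 had enough UMIs to be tested.

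Levels between cell types were not used to choose the genes, and each class was tested against stem-like cells within libraries. Plscr2 had too few UMIs, and 9 of the 10 genes were tested. In enterocyte-like cells 6 of the 9 were called, against 70.0% of all genes tested. Adh6a was 5.73 ± 0.25 (SE) higher on the log2 scale there (edgeR adjusted p = 3.439e-28), while Ceacam10 and Cd177 were lower, by -2.57 ± 0.28 and -2.61 ± 0.40 (edgeR adjusted p = 3.299e-12 and 6.322e-08). In enteroendocrine-like cells 8 of the 9 were called, against 64.7%, with Cd177 higher by 2.49 ± 0.23 and Gm42031 lower by -1.58 ± 0.28. In goblet-like cells 8 of the 9 were called, against 70.6%, among them Bglap3 (3.03 ± 0.43) and Ly6e (1.24 ± 0.14), both higher. In tuft-like cells 6 of the 9 were called, against 49.5%, with Bglap3 at 3.94 ± 0.48 and Ceacam10 at -1.87 ± 0.29. In dividing progenitor-like cells 5 of the 9 were called, against 38.0%, and in Paneth-like cells 2 of the 9, Ly6e (1.53 ± 0.15) and Alad (-0.38 ± 0.15), against 46.3%. In all, 35 of the 54 comparisons were called, 18 higher and 17 lower than in stem-like cells. Bglap3 and Eif3j2 passed the filter on low counts only with the Setdb1-KO libraries in which they were high, so their calls, those of Bglap3 in goblet-like and tuft-like cells included, are a description. In the WT libraries alone 7 of the genes were tested, and 23 of their 42 comparisons were called. Shares over all genes are given neither for the WT libraries alone nor for the 54 comparisons together. Nothing is read from these 2 counts, or from the gap between a count and the share over all genes.

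The order of levels over types in Lgr5+ WT cells shows how unlike the 10 genes are. Adh6a had a mean of 1207 CPM in enterocyte-like cells and 65.8 CPM in dividing progenitor-like cells, the next in order. Cd177 was highest in enteroendocrine-like cells (139.6 CPM) and lowest in enterocyte-like cells (2.11 CPM). Ceacam10 followed the same order at its ends (267.5 and 19.3 CPM), with stem-like cells (155.9 CPM) and goblet-like cells next, whose libraries overlapped (165 and 147 against 120 and 177 CPM). Ly6e was highest in goblet-like cells (248.6 CPM), then Paneth-like cells (179.2 CPM), whose libraries did not overlap. Alad in dividing progenitor-like (117.5 CPM) and tuft-like cells (111 CPM) did not differ beyond the spread of the libraries, nor did Lamtor3 in tuft-like (70.1 CPM) and enteroendocrine-like cells (68.5 CPM).

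**Figure D5:**
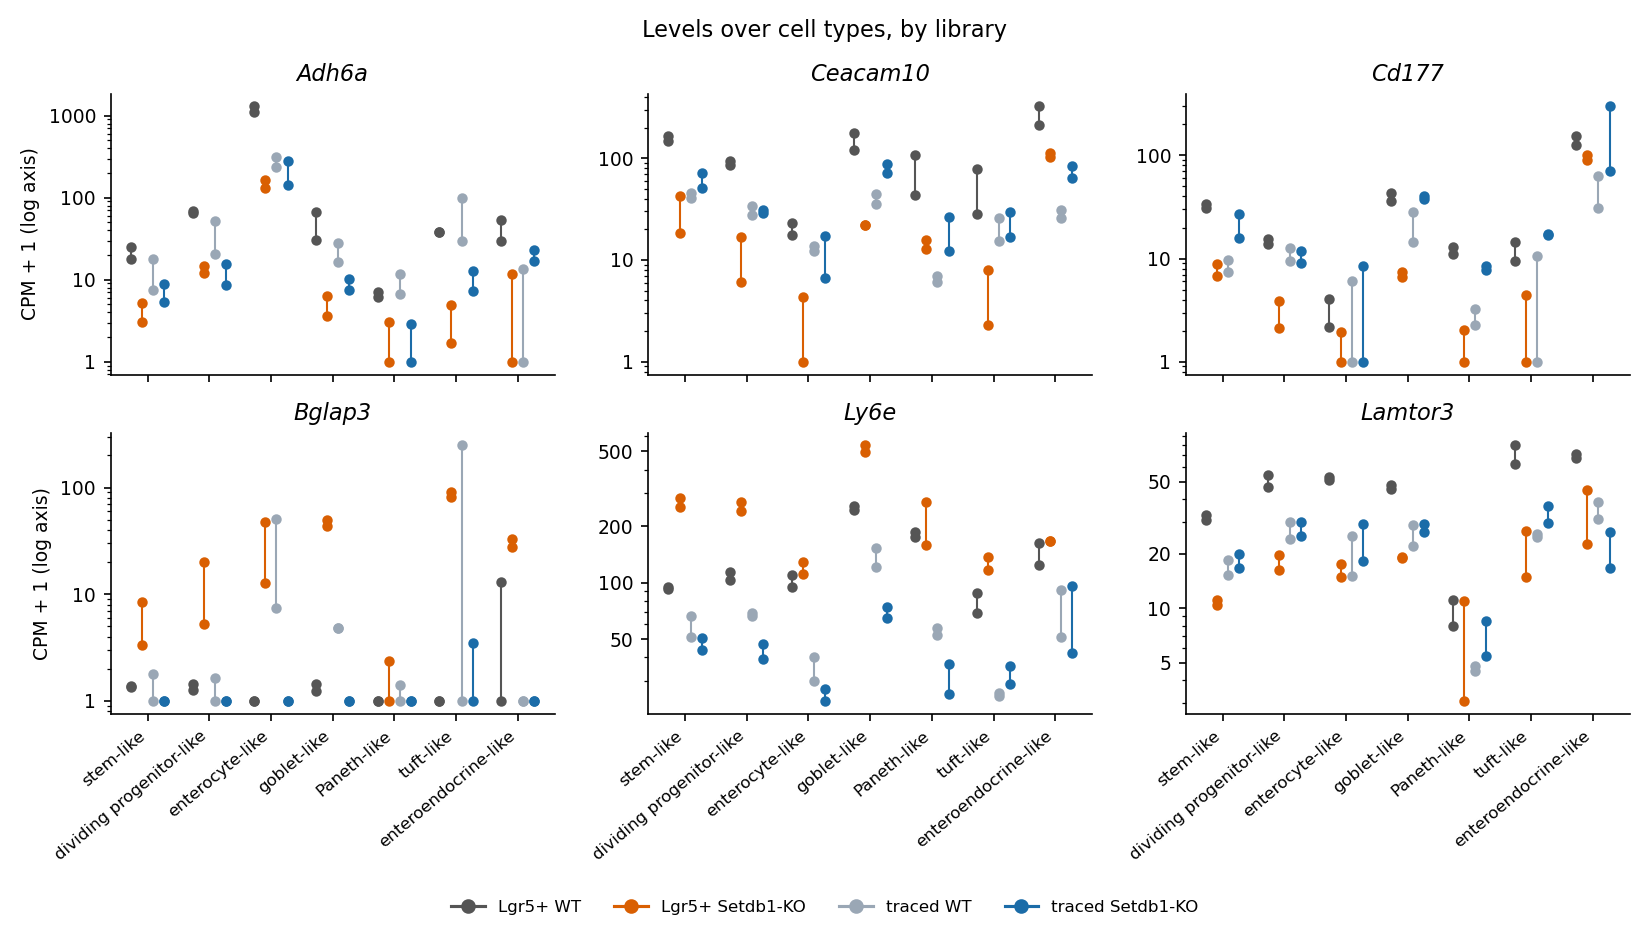
CPM + 1 on a log axis for 6 of the genes in 7 cell types, each point a library, with a line joining the 2 libraries of a group. Adh6a peaks in enterocyte-like cells in all 4 groups, Cd177 in enteroendocrine-like cells, and Lamtor3 is lowest in Paneth-like cells.

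The experiments were also set side by side within a genotype in stem-like cells. The same libraries and both experiments entered the choice of the 10 genes, so the fitted differences, lineage-traced minus Lgr5+ on the log2 scale, are a description without a test. In WT, Cd177 and Ceacam10 were lower in the lineage-traced libraries, at -2.05 ± 0.36 (SE) and -1.75 ± 0.34. Under the label Setdb1-KO they were higher, at 1.44 ± 0.27 and 1.02 ± 0.30. Lamtor3 did likewise, at -0.90 ± 0.27 and 0.84 ± 0.24. Gm42031 was higher in lineage-traced WT (2.91 ± 0.45) and near equal under the label Setdb1-KO (-0.04 ± 0.20). Ly6e stood at -0.52 ± 0.22 in WT and at -2.52 ± 0.21 under the label Setdb1-KO, and Alad at -0.97 ± 0.24 and -2.70 ± 0.22. Eif3j2 stood at 0.60 ± 0.60 and 1.86 ± 0.22. No such difference is given for Plscr2, which in lineage-traced cells had no UMI in WT and 1 under the label Setdb1-KO, or for Bglap3, which had 1 and none. For reference, edgeR put 5 of the 10 genes past the threshold in WT, where it put 35.7% of all genes, and 8 in Setdb1-KO, where it put 44.1%, and nothing is read from these counts. The experiments differ in the reporter allele, in the depth per cell and in the sorted cells, which cannot be told apart here. Without lineage-traced WT replicate 1 the count in WT was 1, and without lineage-traced Setdb1-KO replicate 2 the count in Setdb1-KO was 5.

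Among all 11033 genes tested in stem-like cells, 5 did not overlap between genotypes in any of the 7 types of either experiment with the same direction throughout, and Eif3j2 was 1 of them. The 4 genes most like it were 1500011B03Rik, higher, and Gm47283, Slc24a5 and Neat1, lower. In stem-like cells 1500011B03Rik stood at 15.1 and 14.8 CPM in Lgr5+ WT against 33.3 and 44.8 CPM in Setdb1-KO, and at 12.7 and 10.9 CPM against 32.2 and 29.1 CPM in the lineage-traced libraries. Gm47283, on chromosome Y, stood at 198.6 and 80.8 CPM against 50.6 and 30.4 CPM, and at 71.6 and 104.8 CPM against 1.95 and 0 CPM. Slc24a5, a potassium-dependent sodium and calcium exchanger gene known from pigment cells, stood at 12.2 and 9.7 CPM against 4.13 and 3.48 CPM, and at 31 and 65.5 CPM against 0.975 and 0.484 CPM. Neat1, a nuclear long noncoding RNA, had the smallest differences, with a median over types of -0.76 in the Lgr5+ and -1.06 in the lineage-traced experiment on the scale of log2(mean CPM + 1).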

How the data were processed

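The 8 single-cell RNA-seq libraries were used. The authors deposited raw UMI counts per gene and barcode for each library, made with Cell Ranger on mm10. The submitters' processing notes name Cell Ranger 6.1.1 and Seurat 5.0.3. Barcodes with 1000 (Lgr5+) or 500 (lineage-traced) to 18000 UMIs and under 5% mitochondrial UMIs were kept. Each barcode was given the class whose marker UMI score lay highest between the free RNA level and the 99th percentile of the score, if at least 0.4 of that range; 19.4 to 53.5% per library stayed unassigned. Doublets were not removed, and leaving out those scored by Scrublet was an alternative. Counts were summed per library and class, for classes of at least 10 cells in every library. Genes were filtered with filterByExpr, scaled by TMM and tested with the quasi-likelihood F test of edgeR 4.0.16 (R 4.3.3), with Benjamini-Hochberg adjustment over all genes tested at 0.05, in 1 fit of 4 group means per class; cell classes were tested in a fit with the library as a block. Alternatives used DESeq2 1.42.0, other filters on barcodes and genes, and left out each library. Counts were simulated with a single fixed spread, a mean profile shared by all libraries, and changes only in genes above a minimum of stem-like UMIs. On these the genotype fit recovered 86% of genes changed 2-fold and 100% of genes changed 4-fold, with 13 false calls among 10809 genes. These shares hold for those settings alone. Library totals ran from 16881518 to 81876035 UMIs; intervals and floors (3 UMIs) cover counting error only. Positions are from GENCODE M21 on GRCm38, in which 32158 of the 32286 feature IDs were found. Libraries of a group were taken as replicates. In the genotype fits the spread between them was estimated over all 4 groups together, so p-values of 1 experiment also rest on the libraries of the other.

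The 10 genes and the lists of relatives and neighbours were chosen with earlier results of these data known. Genes were named if they were among the 10, if they were called neighbours or relatives, or if their libraries did not overlap between genotypes in any class of either experiment in 1 direction. The other 10 samples of the series were not used here.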

Additional observations from a re-analysis of the deposited data

Results flagged for a closer look

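In stem-like cells or over all kept cells, the differences between genotypes pointed in opposite directions in the 2 experiments for 5 of the 10 genes, without overlap of libraries in either experiment. How many of all genes did so was not counted, so nothing is read from this count. Adh6a did so in enteroendocrine-like cells alone, at -2.69 in the Lgr5+ and 1.45 in the lineage-traced experiment. The values are the Setdb1-KO minus WT difference in log2(mean CPM + 1) of the lineage-traced experiment minus that of the Lgr5+ experiment, and the difference between the experiments was not tested. For Bglap3 the value was -6.21 over all kept cells. For Ly6e it was -1.83 in stem-like cells and -1.57 over all kept cells. For Cd177 it was 3.39 in stem-like cells and 2.63 over all kept cells. For Ceacam10 it was 2.86 in stem-like cells and 3.31 over all kept cells. For Lamtor3 it was 1.97 over all kept cells. Within classes lineage-traced Lamtor3 overlapped in stem-like, dividing progenitor-like, enterocyte-like and goblet-like cells (1.02 to 1.18 times), was higher in Paneth-like and tuft-like cells, and was lower in enteroendocrine-like cells (0.604), so the opposite direction was seen in tuft-like cells and over all kept cells alone. The fitted lineage-traced log2 fold changes in stem-like cells, a description, were -0.43 ± 0.25 (SE) for Ly6e, 1.37 ± 0.43 for Cd177 and 0.45 ± 0.37 for Ceacam10. Ly6e rested on 105 UMIs in WT and 147 under the label Setdb1-KO, Cd177 on 12 and 58, and Ceacam10 on 74 and 196. Groups of 2 libraries cannot be searched for single libraries that stand apart. Beside these values, those over all kept cells included, Paneth cell and enterocyte markers were lower in the lineage-traced libraries labelled Setdb1-KO than in lineage-traced WT, and their part was not tested.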

How the results depend on the processing

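In all, 192 recomputed counts lay within 1.5 times the reported one and 59 did not. Of the recomputed log2 fold changes of the 10 genes 478 moved by less than their spread between replicates, taken from the SE of the fit, and 23 by more. Uncalled fold changes lost or turned their direction for Bglap3 on the average (kept in 11 of 14 alternatives, from -0.51 up to 1.89), lineage-traced Bglap3 (12 of 14, up to 0), lineage-traced Lamtor3 (15 of 17, from 0.15 down to -0.17) and lineage-traced Plscr2 (15 of 17). Genes called in stem-like cells on the average of both experiments numbered 71, and 31 without the filter on low counts, 126 with the replicate block, 36 with at least 2000 UMIs per barcode and 21 to 181 with 1 library left out (lowest without lineage-traced WT replicate 1, highest without lineage-traced Setdb1-KO replicate 1). Among Lgr5+ libraries they numbered 104, and 33 without the filter, 58 by DESeq2, 274 with the replicate block and 40 (without Lgr5+ WT replicate 1) to 185 (without either lineage-traced Setdb1-KO library). Among lineage-traced libraries they numbered 107, and 61 without the filter, 50 at 2000 UMIs and 54 to 245 with the same 2 libraries left out as for the average. Called neighbours on the average (2) were 1 at 2000 UMIs, 1 within 250 kb and 2 to 6 with 1 library left out. For Lgr5+ libraries (3) they were 6 with the replicate block, 6 at 1000 UMIs, 6 at 2000 UMIs, 5 with limits on genes and doublets left out, and 1 to 6 with 1 library left out. For lineage-traced libraries (4) they were 1 at 2000 UMIs, 2 within 250 kb and 2 to 10. Called relatives on the average (0) were 1 by DESeq2, 1 with the replicate block and 0 to 3. For Lgr5+ libraries (2) they were 1 without the filter and 0 (without Lgr5+ WT replicate 1) to 2, and in the lineage-traced experiment (1) they were 2 by DESeq2, 0 at 1000 UMIs, 0 at 2000 UMIs and 0 (without lineage-traced WT replicate 1) to 4 (without lineage-traced Setdb1-KO replicate 1). Calls between cell types (35) were 23 in WT libraries alone, where fewer libraries and genes were tested, and 31 to 40 with 1 library left out. Calls between experiments were 1 (without lineage-traced WT replicate 1) to 6 in WT (5) and 5 (without lineage-traced Setdb1-KO replicate 2) to 8 in Setdb1-KO (8). Of the 10 genes, those without overlap in any class of the Lgr5+ experiment (5) were 3 with limits on genes and doublets left out, 3 among cells with 1 clear class, 10 without Paneth-like cells and 5 to 9 with 1 library left out (highest without Lgr5+ Setdb1-KO replicate 1). Among lineage-traced libraries (2) they were 1 at 2000 UMIs and 1 among clear cells, and in both (1) they were 0 among clear cells, 2 without Paneth-like cells, 0 over all 8 libraries together and 1 to 2 with 1 library left out. Leaving out Paneth-like cells and leaving out libraries from the counts of overlap were chosen after seeing the data, and a group with 1 library left was assumed to vary like the others. Apart from the fewer samples or genes that an alternative leaves, the cause of these changes was not tested. Libraries with the same replicate number deviated together with a correlation of 0.0374 in the Lgr5+ and 0.0492 in the lineage-traced experiment. With 2 libraries a group, replicate 2 deviates as the mirror image of replicate 1, so each value rests on 1 independent pair. These values cannot show whether libraries with the same number were processed together. The low depth per cell of the lineage-traced libraries limits genes at a few CPM in classes of few cells.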
